A study of Homo sapiens with 6 samples.

Results

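The bone morphogenetic protein (BMP) and activin genes studied here are 10 genes of 24000 listed, namely the ligands BMP2, BMP4 and BMP7, the activin subunit INHBA, the secreted antagonists FST, GREM1 and NOG, and the target genes ID1, ID2 and ID3. The rule used their symbols and no measured value, although the 10 genes were chosen with earlier results of these data known. Each symbol matched 1 gene entry. The RNA came from tumors of PC-3, a human prostate cancer cell line that lacks androgen dependence, grown in athymic nude mice, which lack a thymus but keep other host cells. The tumors fall into 2 groups, 3 from mice given vehicle and 3 from mice given WCE, a standardized extract of the herb Wedelia chinensis that contains luteolin, apigenin and wedelolactone, with a labeled treatment of 10 weeks in every case. The labels give no dose and no age of the mice. The paper gives an age for its mice in its Methods, and the doses in its Results and its Methods differ. The treatment that its Results describe for PC-3 tumors is shorter than the labeled one. The authors deposited 1 FPKM value per entry and tumor, a fragment count divided by the length of the transcript and by the depth of the library. PC-3 is 1 cell line, so the tumors share their origin.

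BMPs and activins are secreted dimers of the TGF-beta superfamily. They bind type I and type II receptor kinases, which phosphorylate SMAD1, SMAD5 and SMAD9 for most BMPs and SMAD2 and SMAD3 for activins, and these SMADs enter the nucleus with SMAD4. ID1, ID2 and ID3, which encode helix-loop-helix proteins that hold back E proteins, are classical direct targets of BMP signaling, and PC-3 belongs to the prostate lines in which BMP ligands and their antagonists have been studied for bone metastasis.

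ID1, ID3 and BMP4 had their lowest values in the same 2 tumors, WCE replicates 2 and 3, whereas ID2 and INHBA kept similar levels in both groups. Over all 6 tumors, mean ID3 in WCE-treated tumors was 55.8% of that in vehicle-treated tumors, mean ID1 was 66.6% and mean BMP4 was 66.9%, while mean ID2 was 103%. None of these differences passed the adjustment over all genes. WCE replicate 1 carried values close to those of the vehicle-treated tumors for each of these genes.

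Vehicle replicate 3 and WCE replicate 1 were nearly alike and have to be considered before any comparison. Their median absolute log2 difference was 0.0276 over 1915 entries with a mean of at least 50 FPKM, while the remaining 14 pairs of tumors lay from 0.095 to 0.247. Vehicle replicate 3 was at 0 in 0 of the 15805 entries detected in WCE replicate 1, and each remaining tumor in 329 to 546 of them. The BMP and activin genes follow this closeness, with differences between these libraries of at most 0.22 on the log2(FPKM + 1) scale, in GREM1. WCE replicate 1 lay 0.166 and 0.144 from WCE replicates 2 and 3, and 0.238 and 0.160 from vehicle replicates 1 and 2. Vehicle replicate 3 lay 0.236 and 0.152 from vehicle replicates 1 and 2, and 0.163 and 0.141 from WCE replicates 2 and 3. These values do not show which of the libraries, if either, bears a wrong label. They may not be independent samples, in which case group means, SDs and p-values with n = 3 do not rest on 3 independent tumors in each group. For this reason results for the tested BMP and activin genes are given with all 6 tumors and again without vehicle replicate 3 and WCE replicate 1, as 2 tumors against 2. The table gives no read counts, and the relative depth estimated from low values lay between 25.0% (WCE replicate 1) and 85.2% of that of vehicle replicate 3 in the other 5 tumors.

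Markers of the cell types were read in the same table, under human gene symbols. Fibroblasts, endothelial cells and myeloid cells of these tumors come from the mouse host, and how mouse reads were handled is not given. The levels of their markers below thus cannot be read as amounts of host cells. The summed level of KRT8, KRT18, KRT19, EPCAM and CDH1, which mark epithelial tumor cells, ranged from 1203.5 to 1447.3 FPKM in vehicle-treated and 1145.8 to 1405.5 FPKM in WCE-treated tumors, with log2 fold changes of 0.05, 0.10 and −0.01 for KRT8, KRT18 and KRT19 and of −0.73 and −0.47 for EPCAM and CDH1 (unadjusted p = 0.00889 and 0.0253 by limma for the last pair). KLK2 and KLK3, which depend on androgen, were listed at 0 in each tumor. Of the markers, 3 of 6 fibroblast markers (COL1A2, DCN and PDGFRB), 3 of 5 endothelial markers (CDH5, VWF and TEK) and 4 of 5 myeloid markers (PTPRC, CSF1R, CD14 and ITGAM) had a mean under 0.5 FPKM. The summed endothelial level was 1.2 to 3.37 FPKM and 3.21 to 7.6 FPKM, and the myeloid level, nearly all from CD68, was 25.6 to 41.2 FPKM and 40.2 to 44.4 FPKM, in vehicle-treated and WCE-treated tumors. Within the endothelial sum, KDR was at 0.216, 0.247 and 0.529 FPKM against 0.559, 1.59 and 5.12 FPKM (log2 fold change 1.14, unadjusted p = 0.0345 by limma), whereas PECAM1 had a log2 fold change of 0.14. The summed fibroblast level was 42.1 to 56.4 FPKM in vehicle-treated tumors and 12.8 to 55.9 FPKM in WCE-treated tumors, and was lowest in WCE replicate 2, where COL1A1 was at 10.4 FPKM, and among its genes LUM had a log2 fold change of −0.85 (unadjusted p = 0.0308 by limma). In WCE replicate 2, ID1, ID3, BMP2, BMP4, INHBA and FST were also at their lowest, and the part of any of these marker levels in the results below was not tested. For the tumor cell markers, fewer cells and less RNA per cell cannot be told apart in such bulk RNA. For the host cell types, the species of the reads behind these levels is not known either.

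The levels of the 10 genes spanned a wide range. FPKM is a value per length, so levels can be set side by side. FST was highest, at 135 ± 36.6 FPKM (SD over 6 tumors), followed by ID1 (49.4 ± 17.2), ID2 (38.1 ± 4.17), INHBA (29.0 ± 3.95), ID3 (15.2 ± 8.34), BMP2 (7.38 ± 1.78), BMP4 (6.48 ± 2.05), NOG (5.61 ± 2.19) and GREM1 (1.14 ± 0.630 FPKM). The lowest FST tumor, at 96.5 FPKM, was above the highest ID1 tumor at 71.0 FPKM, and the lowest ID2 tumor, at 33.0 FPKM, was above the highest INHBA tumor at 32.2 FPKM. All other neighbors in this order overlapped in range, apart from BMP7, which was last and was at most 0.0297 FPKM.

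**Figure D1:**
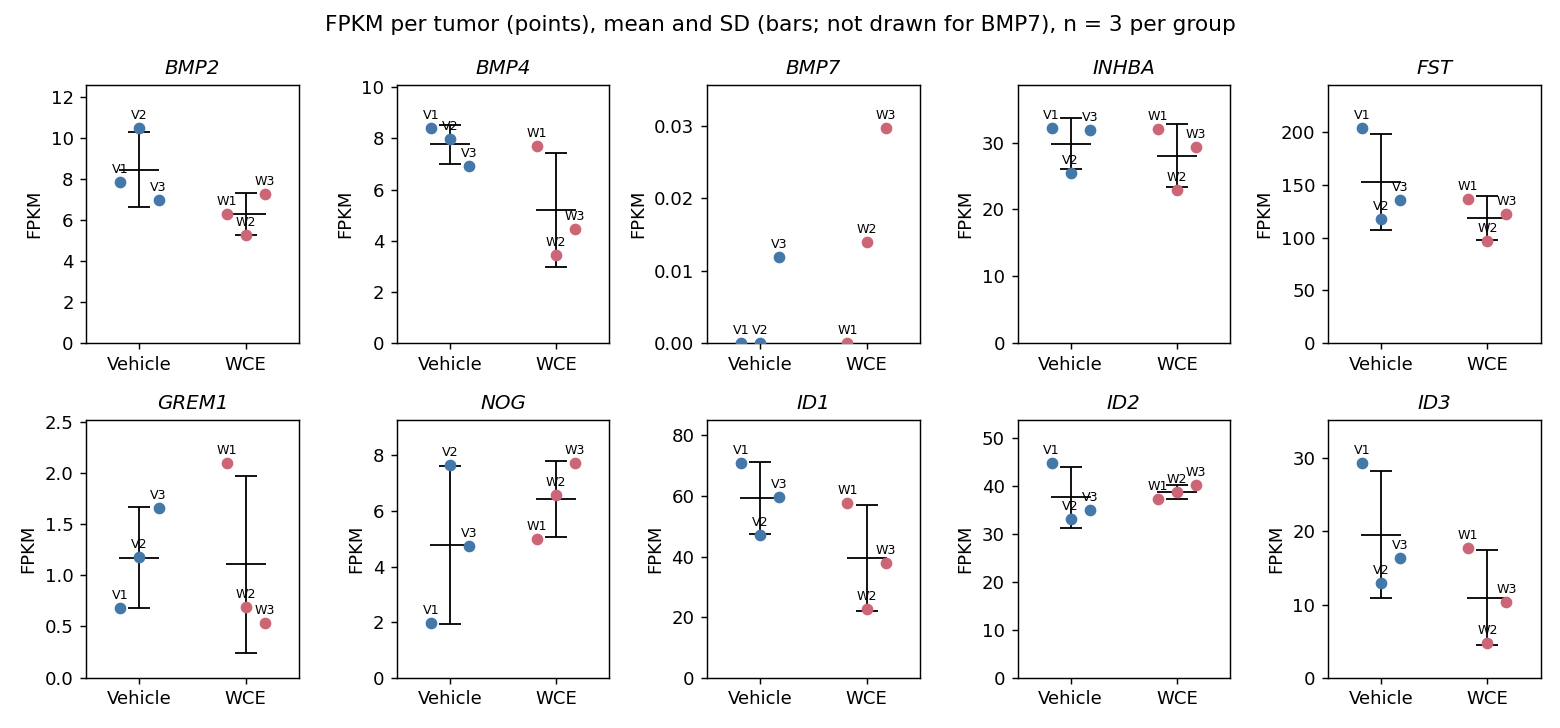
FPKM of the 10 BMP and activin genes in each tumor, 1 panel per gene with its own linear axis from 0, vehicle-treated tumors (V1 to V3, blue) beside WCE-treated tumors (W1 to W3, red), with the mean and SD of 3 tumors as black bars except for BMP7. ID1, ID3 and BMP4 are lowest in W2 and W3, with W1 inside the range of V1 to V3, and the ranges of the groups overlap in every panel.

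Comparison of the groups asked whether WCE treatment moved these genes. It was made with limma on log2(FPKM + 1) over 13287 entries with a mean of at least 0.5 FPKM, which 9 of the 10 genes reached. With all 6 tumors, 1 of the 9 genes (BMP4, lower) had an unadjusted p under 0.05 by limma, when 7.1% of all entries tested had one in either direction, 3.33% with a lower and 3.78% with a higher level in WCE-treated tumors. With p adjusted over all entries by the Benjamini-Hochberg method, 0 of the 9 had an adjusted p under 0.05, as against 0.00753% of all entries, which is 1 entry. The lowest adjusted p among the 9 was 0.623 by limma. The groups did not overlap in 0 of the 9 genes, when they did not overlap in 12.8% of all entries, 6.4% with lower WCE values. Of the 9 genes, 7 had a negative log2 fold change, as did 6828 of the 13287 entries. The median was −0.34 over the 9 genes and −0.0063 over all entries. INHBA and GREM1, which are among the 7, changed sign in some fits that left out 1 tumor.

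In the comparison of 2 tumors with 2, BMP4, ID1 and ID3 had an unadjusted p under 0.05 by limma, that is 3 of 9 genes, all lower in WCE-treated tumors, when 18.4% of all entries had one, 9.59% in this direction and 8.84% in the other. BMP2, BMP4, ID1 and ID3 did not overlap between these pairs of tumors, 4 of 9 genes, against 53.5% of all entries in either direction and 27.8% with lower WCE values. Again 0 of the 9 genes passed the adjustment over all entries, which 5 entries or 0.0376% did. The lowest adjusted p of the 9 was 0.173 by limma, for BMP4.

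**Figure D2:**
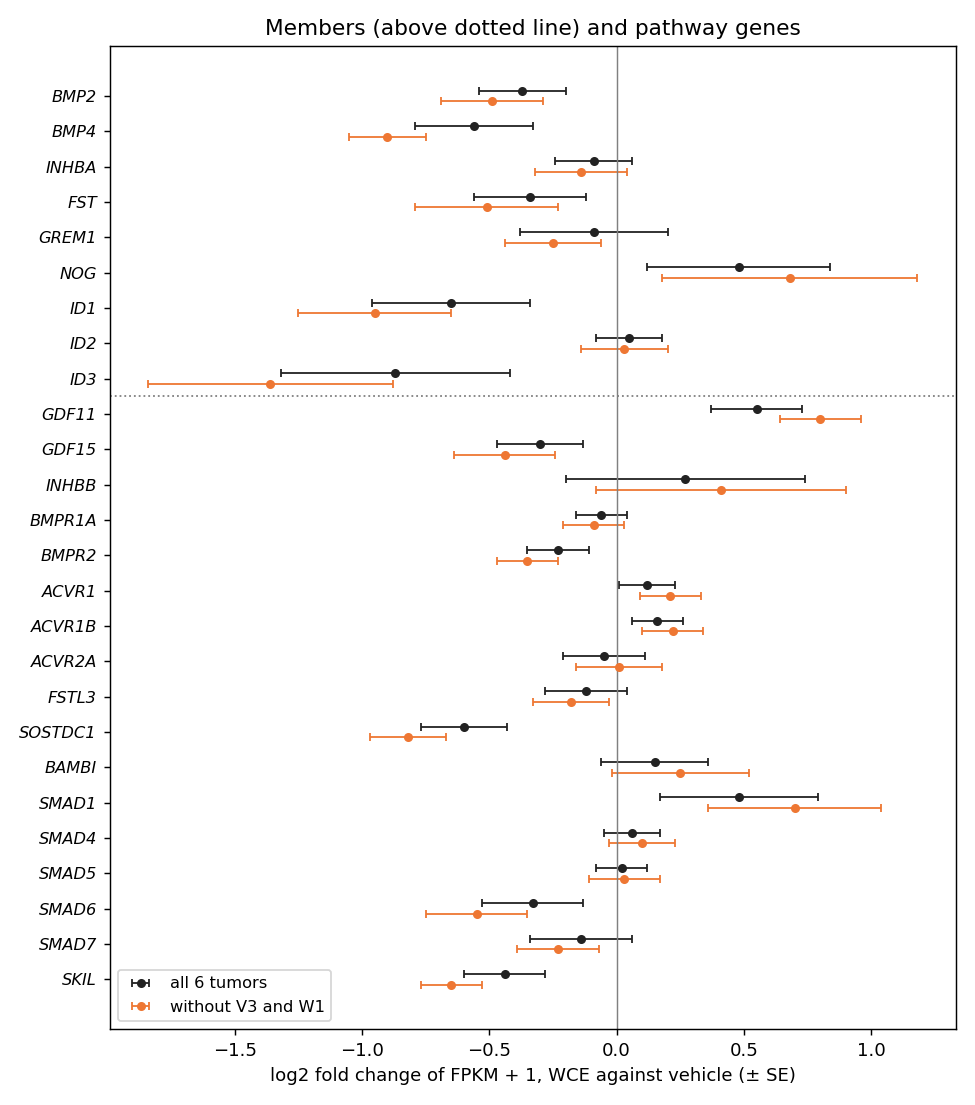
Log2 fold change of FPKM + 1 in WCE-treated against vehicle-treated tumors, with its SE by limma, for the 9 tested BMP and activin genes (above the dotted line) and for pathway genes named by a fixed rule, over all 6 tumors (black) and without vehicle replicate 3 and WCE replicate 1 (orange). BMP4, ID1 and ID3 lie at −0.56, −0.65 and −0.87 with all tumors and at −0.90, −0.95 and −1.36 without this pair, while ID2 and INHBA lie between −0.14 and 0.05 in both.

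Among the ligands, BMP4, a BMP that directs mesoderm and bone formation, was listed at 8.41, 7.98 and 6.92 FPKM in vehicle replicates 1, 2 and 3 and at 7.69, 3.43 and 4.47 FPKM in WCE replicates 1, 2 and 3. WCE replicate 1 thus lay inside the vehicle range and the other WCE-treated tumors below it. The means were 7.77 ± 0.766 and 5.20 ± 2.22 FPKM (SD, n = 3 each), and the log2 fold change was −0.56 (SE 0.23, unadjusted p = 0.0466 and adjusted p = 0.623 by limma). The exact permutation test over the 6 tumors gave a two-sided p of 0.2, where the smallest it allows with 3 against 3 is 0.1. Without vehicle replicate 3 and WCE replicate 1 the log2 fold change was −0.90 (SE 0.15, unadjusted p = 0.00166 and adjusted p = 0.173 by limma). BMP4 kept an unadjusted p under 0.05 in 1 of the 6 fits that left out 1 tumor, that without WCE replicate 1 (−0.83), and had one of up to 0.151 in the other 5, where the log2 fold change was −0.34 at its smallest, without WCE replicate 2. Its entry, on chromosome 14 from 54416455 to 54423554, joins 2 transcription start sites. Coordinates are those of the table, counted from 1, and hg19 is the human build named in the submitters' processing notes.

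BMP2, a bone-inducing ligand close to BMP4, was listed at 7.87, 10.5 and 6.99 FPKM in vehicle-treated tumors and at 6.31, 5.27 and 7.29 FPKM in WCE-treated tumors, in the order of their numbers. WCE replicate 3 was above vehicle replicate 3, so the groups overlapped. Its log2 fold change of −0.37 (SE 0.17) had an unadjusted p of 0.0618 by limma, and −0.49 (SE 0.20, unadjusted p = 0.0611) in the comparison of 2 tumors with 2. It was −0.22 (unadjusted p = 0.207) without vehicle replicate 2 and −0.48 (unadjusted p = 0.0332) without vehicle replicate 3. BMP2 lies on chromosome 20 from 6748745 to 6760910. BMP7, a ligand of kidney and bone development listed on the same chromosome from 55743809 to 55841707, was at 0 in vehicle replicates 1 and 2 and WCE replicate 1, and at 0.0119, 0.0140 and 0.0297 FPKM in vehicle replicate 3 and WCE replicates 2 and 3. Such values rest on very few reads, and BMP7 was not tested.

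INHBA encodes the βA subunit, which forms activin A as a homodimer. It was listed at 32.2, 25.4 and 31.9 FPKM in vehicle replicates 1 to 3 and at 32.0, 22.9 and 29.3 FPKM in WCE replicates 1 to 3. The lowest tumor of each group was replicate 2, and the ranges overlapped almost wholly. The log2 fold change was −0.09, with a 95% interval from −0.44 to 0.27 by limma (unadjusted p = 0.583), and −0.14 from −0.59 to 0.32 with the pair of similar libraries left out. Its locus, on chromosome 7 from 41728601 to 41818976, overlaps that of LOC285954, and whether the authors' counting used the strand is not given in the sources used here.

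Of the secreted antagonists, FST (follistatin), which binds activins and keeps them from their receptors, was the most abundant of the 10 genes. It was listed at 204, 118 and 136 FPKM in vehicle-treated tumors and at 137, 96.5 and 122 FPKM in WCE-treated tumors, in replicate order. Vehicle replicate 1 was the highest and WCE replicate 2 the lowest, while the other 4 tumors lay close to each other. The log2 fold change was −0.34 (SE 0.22, unadjusted p = 0.164 by limma) and became −0.11 without vehicle replicate 1 and −0.51 without the pair of similar libraries. FST lies on chromosome 5 from 52776264 to 52782304.

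The ratio of FST to INHBA shows how the antagonist and its ligand subunit stood within a tumor. It was 6.33, 4.64 and 4.25 in vehicle-treated tumors and 4.27, 4.21 and 4.15 in WCE-treated tumors, so that FST was above INHBA in all 6 tumors. The exact permutation test of the log2 ratio gave p = 0.2, and the WCE-treated tumors differed from vehicle replicate 3 by less than the spread within the vehicle group.

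NOG (noggin), which binds BMPs directly, was listed at 1.97, 7.65 and 4.73 FPKM in vehicle-treated tumors and at 5.00, 6.58 and 7.74 FPKM in WCE-treated tumors, in replicate order. Vehicle replicate 1 was the lowest tumor, and the groups overlapped. For NOG the log2 fold change was 0.48 (SE 0.36, unadjusted p = 0.222 by limma) with all tumors, 0.68 with the pair of similar libraries left out, 0.063 without vehicle replicate 1 and 0.83 (unadjusted p = 0.0343 by limma) without vehicle replicate 2. GREM1 (gremlin), an antagonist of BMP2 and BMP4, was near 1 FPKM, at 0.680, 1.18 and 1.66 in vehicle-treated and 2.10, 0.689 and 0.534 FPKM in WCE-treated tumors. The log2 fold change of −0.09 had a 95% interval from −0.78 to 0.59 by limma (unadjusted p = 0.759), and it was −0.25 (unadjusted p = 0.241) without the pair of similar libraries, which hold its highest values. NOG lies on chromosome 17 from 54671060 to 54672951 and GREM1 on chromosome 15 from 33010205 to 33026870.

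The ID genes are the readout of the pathway in this list, and ID2 had another order of tumors than ID1 and ID3. Of the 10 genes, 7 had a promoter in the RefSeq table (GRCh38.p14), which has no entry matched to BMP2, BMP7 or NOG. The 250 bases before the annotated start of ID1, ID2 and ID3 are shown because ID1 and ID3 were low in the same tumors and ID2 was not. Capitals mark CCAAT and TATAA, common promoter elements, read on both strands (ATTGG and TTATA on the other), 2 motifs chosen after the sequences had been seen. The sequences run 5′ to 3′ on the strand of the gene, for ID1 at chr20:31605039-31605288 (+), for ID2 at chr2:8681806-8682055 (+) and for ID3 at chr1:23559502-23559751 (−).
ID1: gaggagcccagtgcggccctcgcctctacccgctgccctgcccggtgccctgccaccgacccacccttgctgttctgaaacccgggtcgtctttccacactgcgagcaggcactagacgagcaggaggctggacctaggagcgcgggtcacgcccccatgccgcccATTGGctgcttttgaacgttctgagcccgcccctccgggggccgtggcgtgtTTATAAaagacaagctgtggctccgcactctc
ID2: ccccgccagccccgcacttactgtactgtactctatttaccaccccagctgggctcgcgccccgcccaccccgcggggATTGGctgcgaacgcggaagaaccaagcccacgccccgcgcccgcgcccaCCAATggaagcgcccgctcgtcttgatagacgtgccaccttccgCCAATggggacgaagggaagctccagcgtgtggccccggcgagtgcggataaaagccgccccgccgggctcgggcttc
ID3: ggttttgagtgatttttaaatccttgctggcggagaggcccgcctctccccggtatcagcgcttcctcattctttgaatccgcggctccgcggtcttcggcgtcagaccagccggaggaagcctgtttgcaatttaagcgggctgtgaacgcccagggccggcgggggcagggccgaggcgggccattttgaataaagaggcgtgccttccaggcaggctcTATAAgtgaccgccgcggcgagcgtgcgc

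ID1 and ID3 each hold TATAA in this stretch, beginning 31 bases before the start in ID1, where it overlaps TTATA, and 29 in ID3. ID2 holds no exact TATAA, but at the same distance as in ID1 it holds gataa, which differs only in its first base. An exact search thus does not show that ID2 lacks such an element, and any part of these letters in the levels was not tested. ID2 holds CCAAT or its complement at 3 places, ID1 at 1 and ID3 at none. Among all 35116 promoters of 300 bases in the table, 20.4% hold TATAA and 34.6% hold CCAAT on either strand. GGCGCC, a GC-rich sequence bound by BMP-activated SMADs, CAGACA, which holds the SMAD box, and GTCTAGAC were searched in the same way and occur in 19.2%, 16.9% and 0.202% of all promoters. In the 300 bases that include 50 after the start, none of the 3 was found in ID1, ID2 or ID3, which says only that these letters are not in this window.

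ID1, the ID gene most used as a BMP readout, was listed at 71.0, 47.1 and 59.7 FPKM in vehicle replicates 1 to 3 and at 57.6, 22.7 and 38.0 FPKM in WCE replicates 1 to 3. WCE replicates 2 and 3 were below every vehicle-treated tumor and WCE replicate 1 was between vehicle replicates 2 and 3. The group means, 59.3 ± 11.9 and 39.5 ± 17.5 FPKM (SD, n = 3 each), differed with a log2 fold change of −0.65 (SE 0.31, 95% interval −1.38 to 0.07, unadjusted p = 0.0716 and adjusted p = 0.623 by limma). With the pair of similar libraries left out it was −0.95 (SE 0.30, unadjusted p = 0.0242 and adjusted p = 0.221 by limma), and the mean of WCE replicates 2 and 3 was 51.4% of that of vehicle replicates 1 and 2. Without WCE replicate 2 the log2 fold change was −0.31. ID1 lies on chromosome 20 from 30193086 to 30194317.

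ID3, which shares the helix-loop-helix region with ID1, was listed at 29.4, 13.0 and 16.3 FPKM in vehicle-treated tumors and at 17.7, 4.68 and 10.4 FPKM in WCE-treated tumors, in replicate order. Vehicle replicate 1 was far above the other vehicle-treated tumors, and the order of the tumors differed from that of ID1 only in vehicle replicate 3 and WCE replicate 1, which changed places. The log2 fold change was −0.87 (SE 0.45, 95% interval −1.90 to 0.17, unadjusted p = 0.0892 by limma) with all tumors and −1.36 (SE 0.48, unadjusted p = 0.0355 and adjusted p = 0.243 by limma) in the comparison of 2 tumors with 2, where the mean was 35.6% of that in the vehicle-treated pair. Without WCE replicate 2 it was −0.41. ID3 lies on chromosome 1 from 23884421 to 23886285.

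ID2, an ID gene also driven by MYC and other inputs, was listed at 44.8, 33.0 and 34.9 FPKM in vehicle-treated and at 37.2, 38.7 and 40.2 FPKM in WCE-treated tumors. All 3 WCE-treated tumors lay inside the vehicle range. Its log2 fold change was 0.05 (95% interval −0.24 to 0.35, unadjusted p = 0.688 by limma), and 0.03 (95% interval −0.39 to 0.46) with the pair of similar libraries left out. The ratio of ID1 to ID2 was 1.58, 1.43 and 1.71 in vehicle-treated tumors and 1.55, 0.588 and 0.946 in WCE-treated tumors. The latter 2 tumors were the only ones with less ID1 than ID2, and the exact permutation test of the log2 ratio gave p = 0.2. ID2 lies on chromosome 2 from 8822113 to 8824583. ID4, the remaining ID gene, was between 0.0774 and 0.364 FPKM and was not tested.

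**Figure D3:**
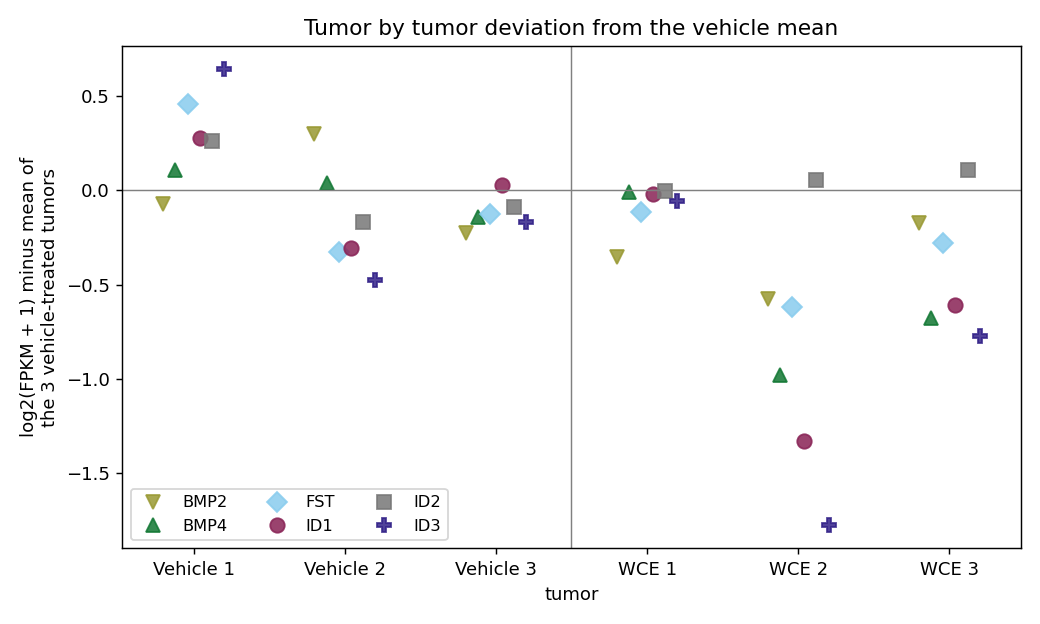
Log2(FPKM + 1) of BMP2, BMP4, FST, ID1, ID2 and ID3 in each tumor minus the mean of the 3 vehicle-treated tumors for that gene, so that 0 is the vehicle mean. In WCE 2 and WCE 3 the markers of BMP4, ID1 and ID3 lie below the other genes and ID2 lies above 0, while the markers of WCE 1 and Vehicle 3 sit at similar heights.

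The other genes of the pathway were taken from lists of 93 symbols by role, of which 53 were tested. With all 6 tumors, 3 of the 53 had an unadjusted p under 0.05 by limma, GDF11 higher and SOSTDC1 and SKIL lower, and 0 passed the adjustment. This is near the share of all entries given above. In the comparison of 2 tumors with 2, 13 of the 53 had an unadjusted p under 0.05, 6 higher and 7 lower, when 18.4% of all entries had one, and 0 passed the adjustment. The median log2 fold change was 0.06 over the 53 genes, and by role it was 0.27 for 9 other ligands, 0.12 for 9 receptors and coreceptors, −0.15 for 8 other antagonists, 0.02 for 15 SMADs and their regulators, 0.11 for 9 other target genes and −0.05 for 3 partners of ID proteins.

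**Figure D4:**
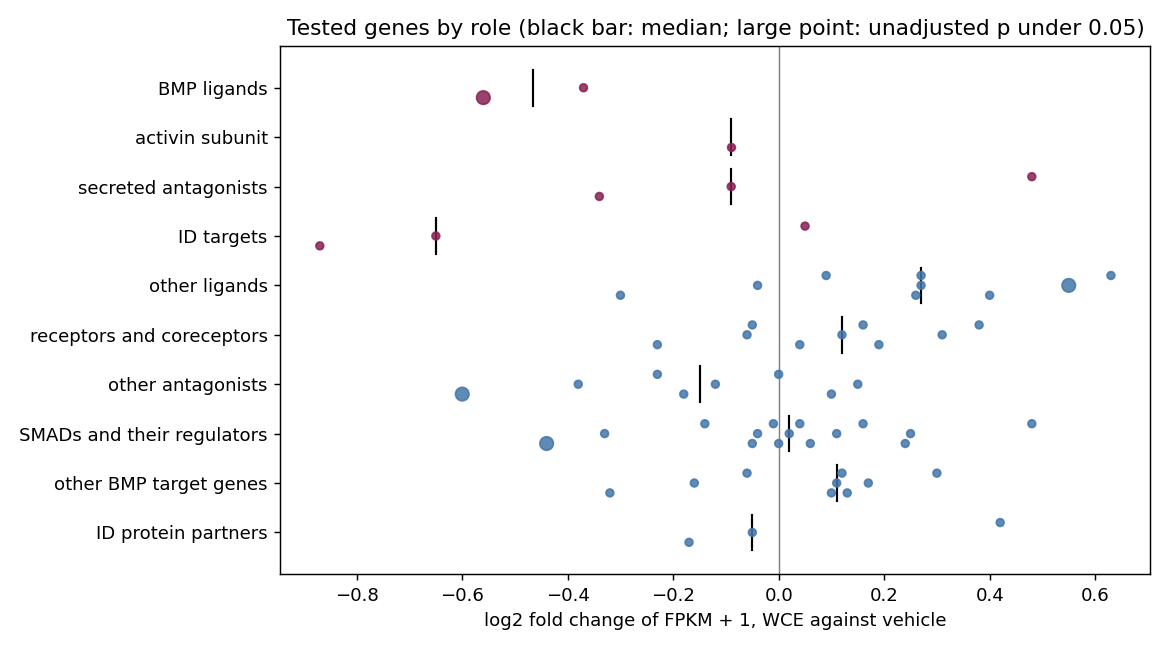
Log2 fold change of FPKM + 1 in WCE-treated against vehicle-treated tumors for each tested gene, by role, with the 9 tested BMP and activin genes in purple and the 53 other pathway genes in blue. Black bars are medians and large points are the 4 genes with an unadjusted p under 0.05 by limma, BMP4, GDF11, SOSTDC1 and SKIL.

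GDF11, a ligand that signals through activin receptors, was listed at 5.13, 6.60 and 8.39 FPKM in vehicle-treated and at 8.75, 11.8 and 10.1 FPKM in WCE-treated tumors, so the groups did not overlap, although vehicle replicate 3 and WCE replicate 1 differed by 0.05 on the log2 scale. Treated tumors were 0.55 higher on the log2 scale (SE 0.18, unadjusted p = 0.0149 by limma), 0.80 with this pair left out and 0.46 without WCE replicate 2, where the unadjusted p was 0.0551. The locus of GDF11 overlaps that of SARNP. SOSTDC1, a secreted antagonist of BMPs and WNT signaling, was low in every tumor, at 1.83, 1.83 and 1.32 FPKM in vehicle-treated and 1.10, 0.486 and 0.723 FPKM in WCE-treated tumors. The log2 difference was −0.60 (SE 0.17, unadjusted p = 0.00893 by limma), and it kept an unadjusted p under 0.05 in each of the 6 fits that left out 1 tumor, from −0.73 to −0.48. SKIL, a corepressor of SMADs that TGF-beta and activin induce, was listed at 15.5, 16.0 and 14.6 FPKM against 14.3, 10.4 and 9.07 FPKM, with a log2 fold change of −0.44 (SE 0.16, unadjusted p = 0.0251 by limma) and −0.65 in the comparison of 2 tumors with 2. Its unadjusted p was 0.0586, 0.0746, 0.0732 and 0.0941 without vehicle replicate 1, vehicle replicate 2, WCE replicate 2 and WCE replicate 3, with log2 fold changes from −0.43 to −0.31. The adjusted p was 0.623 by limma for GDF11, SOSTDC1 and SKIL alike, and the exact permutation p was 0.1, the least possible here.

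None of the 9 tested receptors and coreceptors had an unadjusted p under 0.05 by limma with all 6 tumors, in either direction. The share over all entries tested was 7.1%. BMPR1A and ACVR1, type I receptors for BMPs, had means of 8.98 ± 0.628 and 12.5 ± 0.806 FPKM under vehicle and of 8.57 ± 0.531 and 13.6 ± 1.27 FPKM under WCE (SD, n = 3), with 95% intervals of the log2 fold change from −0.30 to 0.18 and from −0.13 to 0.37 by limma. ACVR1B, the main type I receptor for activin, had a log2 fold change of 0.16 (SE 0.10, unadjusted p = 0.132), and ACVR2A, a type II receptor for activins and BMPs, one of −0.05 (SE 0.16). BMPR2, the type II receptor for BMPs, was at 6.20, 6.33 and 6.16 FPKM in vehicle-treated tumors and at 6.23, 4.76 and 4.64 FPKM in WCE-treated tumors, with WCE replicate 1 at the vehicle level as for BMP4. It had a log2 fold change of −0.23 (unadjusted p = 0.105 by limma) and −0.35 (unadjusted p = 0.0289) without the pair of similar libraries. In that comparison 3 of the 9 receptors and coreceptors had an unadjusted p under 0.05 by limma, when 18.4% of all entries had one. BMPR2 was the 1 lower in WCE-treated tumors, and the other 2 were higher.

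Of the SMADs, SMAD1, which carries BMP signals, varied widely, at 17.7, 35.0 and 22.2 FPKM in vehicle-treated and 22.7, 48.7 and 35.0 FPKM in WCE-treated tumors, and its log2 fold change of 0.48 (SE 0.31, unadjusted p = 0.168 by limma) was opposite in sign to those of ID1 and ID3. It was 0.70 in 2 tumors against 2, 0.22 without WCE replicate 2 and 0.76 (unadjusted p = 0.0327) without WCE replicate 1. SMAD5 and SMAD4 had log2 fold changes of 0.02 and 0.06, with 95% intervals from −0.22 to 0.26 and from −0.20 to 0.33, and the locus of SMAD5 overlaps that of SMAD5-AS1. SMAD6, an inhibitory SMAD that BMPs induce, was listed at 2.01, 3.16 and 2.28 FPKM in vehicle-treated and at 2.51, 1.55 and 1.30 FPKM in WCE-treated tumors. WCE replicates 2 and 3 were again below all vehicle-treated tumors, with a log2 fold change of −0.33 (SE 0.20, unadjusted p = 0.134 by limma) over 6 tumors and −0.55 (unadjusted p = 0.0390 by limma) in 2 against 2. SMAD7, the inhibitory SMAD of the TGF-beta and activin branch, had −0.14 (SE 0.20, unadjusted p = 0.518). BAMBI, a receptor without kinase activity that dampens signaling, had 0.15 (SE 0.21), with WCE replicate 3 alone at 9.48 FPKM and the other tumors from 5.22 to 6.50 FPKM.

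The ligands and antagonists that act beside INHBA and FST were abundant. INHBB, the βB subunit, was listed at 16.3, 49.3 and 64.3 FPKM in vehicle-treated and at 64.6, 38.9 and 37.4 FPKM in WCE-treated tumors, with a log2 fold change of 0.27 and a wide 95% interval from −0.82 to 1.37 by limma. The ratio of INHBB to INHBA was 0.507 in vehicle replicate 1 and between 1.27 and 2.02 in the other 5 tumors. Vehicle replicate 1 was thus apart for several of these genes, lowest in INHBB and NOG and highest in FST, ID1, ID2 and ID3. FSTL3, an antagonist related to follistatin, was at 27.6 ± 2.93 FPKM under vehicle and 25.6 ± 5.35 FPKM under WCE (SD, n = 3), with a log2 fold change of −0.12 (SE 0.16). GDF15, a distant member of the superfamily that stress induces, was lower in each WCE-treated tumor (69.2, 45.1 and 65.7 FPKM) than in each vehicle-treated one (79.3, 69.9 and 69.6 FPKM). Vehicle replicate 3 and WCE replicate 1 differed by 0.01 on the log2 scale in this gene, its locus overlaps that of MIR3189, and the log2 fold change was −0.30 (SE 0.17, unadjusted p = 0.112 by limma).

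Profiles most like those of ID1 and INHBA were sought among 9240 entries with a mean of at least 5 FPKM, by the mean absolute difference over the 6 tumors between profiles of log2(FPKM + 1) that were each centered and divided by their SD. Nearest to ID1 were CASK (0.0807), APOC1 (0.0848) and LAD1 (0.0978). Division by the SD removes the size of a change, and CASK ran only from 8.59 to 11.4 FPKM, against 22.7 to 71.0 FPKM for ID1. APOC1, an apolipoprotein gene, was listed at 9.26, 6.19 and 7.61 FPKM in vehicle-treated and at 7.64, 2.25 and 5.06 FPKM in WCE-treated tumors, in the same order of tumors as ID1 except for the pair of similar libraries. ID3 ranked 16 by this measure (0.147), BMP4 155 (0.301) and ID2 5534 (1.14). Nearest to INHBA were GJA1 (0.107), P4HA1 (0.112) and FAM162A (0.116), with ID1 at rank 164 and FST at rank 562. The 6 values of a profile include the pair of similar libraries, and likeness was not tested.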

How the data were processed

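RNA-seq of 3 vehicle-treated and 3 WCE-treated PC-3 tumors was analyzed. The authors deposited FPKM values, 1 per gene entry and tumor, from strand-specific libraries of polyadenylated RNA. The submitters' processing notes name TopHat2 2.0.13, Cufflinks, hg19 and mm10 with no role given, and the handling of reads from the mouse host is not given in the sources used here. Depth is known only relative to vehicle replicate 3, from the commonest ratio of low values, so no counting intervals are given.

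Values were changed to log2(FPKM + 1), which understates changes of low genes, and entries with a mean of at least 0.5 FPKM over the 6 tumors were kept (13287 of 24000). A two-sided test in limma 3.58.1 (R 4.3.3), with the variance allowed to follow the mean, compared the groups, with Benjamini-Hochberg adjustment over all entries, with a threshold of 0.05. The limma step was tested on simulated data with independent tumors, which does not cover the likeness of vehicle replicate 3 and WCE replicate 1. The tumors are described as individual ones, with no word on how many mice or experiments they came from, so p-values measure the spread between these tumors. Other steps used Python 3.11.15, numpy 2.4.6, pandas 2.3.3 and matplotlib 3.10.9.

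The 10 genes, the pathway lists and the tests were chosen with earlier results of these data known. Pathway genes are named if they had an unadjusted p under 0.05 with all 6 tumors or belong to 15 fixed symbols (5 receptors, 5 SMADs, BAMBI, FSTL3, INHBB, ID4 and GDF15), with the 3 nearest profiles of ID1 and of INHBA. Each symbol was matched to 1 entry, alone or joined with others. As alternatives, other settings were tried for pseudocount, filter, scaling and trend, with tumor weights, a replicate block, each tumor left out, and vehicle replicate 3 and WCE replicate 1 left out together.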

Additional observations from a re-analysis of the deposited data

How the results depend on the processing

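Depth limits the values of genes near or under 1 FPKM, such as BMP7, ID4 and GREM1, and WCE replicate 1 had the lowest relative depth. By limma, 0 of the 9 tested BMP and activin genes passed the adjustment as designed or in any of the 16 alternatives. Their directions held in every alternative other than those leaving out 1 tumor, except that GREM1 had no value with the filter at 2 FPKM. The causes of the shifts below were not tested.

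Without a filter, 0 of the 9 genes had an unadjusted p under 0.05 (BMP4 −0.56, unadjusted p = 0.105 by limma), and over all entries 0 had an adjusted and 1051 an unadjusted one. Upper-quartile scaling also gave 0 of the 9, with BMP4 at −0.55 (unadjusted p = 0.0509 by limma) against −0.56 (unadjusted p = 0.0466) as designed. Tumor weights gave 2 of the 9 (BMP4 and ID1), 12 pathway genes and 3201 entries in all, and turned SMAD5 (−0.046) and INHBB (−0.19). Leaving out vehicle replicate 3 together with WCE replicate 1, there were 3 of the 9, 13 pathway genes, 2449 entries in all and 5 with an adjusted p under 0.05, and ACVR2A was at 0.0068, against 1, 3, 944 and 1 as designed.

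With a replicate block, BMP4, FST, ID1 and ID3, 4 of the 9, and 6 pathway genes had an unadjusted p under 0.05, as did 1049 of all 13287 entries. Nothing in the labels pairs tumors of 1 number, and the deviations of such pairs from the group means correlated at −0.241, 0.160 and −0.0931.

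Leaving out 1 tumor gave from 0 to 3 of the 9 genes: 0 without vehicle replicate 1 or WCE replicate 2, NOG without vehicle replicate 2, BMP2 without vehicle replicate 3 or WCE replicate 3, and BMP4, ID1 and ID3 without WCE replicate 1. Pathway genes numbered from 1 (without WCE replicate 2) to 16 (without WCE replicate 1), with 6 without vehicle replicate 3 and 2 without vehicle replicate 1 or WCE replicate 3. Entries with an adjusted p under 0.05 numbered from 1 to 7, and those with an unadjusted one 423, 347 and 1771 without vehicle replicates 1, 2 and 3 and 2033, 235 and 219 without WCE replicates 1, 2 and 3. The sign changed in some of these fits for INHBA (−0.20 to 0.047), GREM1 (−0.41 to 0.10), ID2 (−0.032 to 0.18), ACVR2A (−0.12 to 0.069), SMAD5 (−0.047 to 0.071), BAMBI (−0.094 to 0.27), FSTL3 (−0.26 to 0.034) and INHBB (−0.30 to 0.66).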
